A study of Mus musculus with 6 samples.

Results

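The levels of 9 genes of the R-spondin pathway and the stem cell compartments it marks were examined in mouse dorsal skin during depilation-induced hair follicle (HF) regeneration. They were the 3 receptors Lgr4, Lgr5 and Lgr6, the 3 ligands Rspo1, Rspo2 and Rspo3, the 2 ubiquitin ligases Znrf3 and Rnf43, and Lrig1. The genes were chosen by symbol among the 32285 genes of the deposited matrices, and each symbol matched 1 row. Skin was shaved and waxed on the back of adult wildtype males of the FVB strain, aged 55 to 57 days after birth, and cells were collected without a wait (0 h), after 4 h and 16 h, and after 2 d, 4 d and 6 d. Each time point was 1 library of the 10x Genomics 3′ kit, in which cells of 2 mice, dissociated separately, were mixed in equal numbers. The cells do not carry the animal they came from, so there was no replicate of a time point.

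R-spondins are secreted proteins that bind LGR4, LGR5 or LGR6 together with the membrane ubiquitin ligases ZNRF3 and RNF43. The ligases remove Frizzled receptors from the cell surface, and their capture by an R-spondin with its LGR receptor leaves more Frizzled there, so that a cell responds more strongly to Wnt ligands. In resting HFs Lgr5 is known as a marker of the lower bulge and the hair germ, Lgr6 of the region just above the bulge, and Lrig1 of the junction between the upper HF and the epidermis. LRIG1 is a membrane protein that lowers the amount of ERBB receptors. The dermal papilla (DP) is the cluster of mesenchymal cells below the follicle and is a known source of R-spondins in growing HFs.

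In the mouse genome (GRCm38) Lgr4 (ENSMUSG00000050199) lies on the forward strand at chr2:109917647-110014257, Lgr5 (ENSMUSG00000020140) on the reverse strand at chr10:115450311-115587780 and Lgr6 (ENSMUSG00000042793) on the reverse strand at chr1:134983301-135105276. Rspo1 (ENSMUSG00000028871) lies at chr4:124986430-125009099 on the forward strand, Rspo2 (ENSMUSG00000051920) at chr15:43020794-43170826 on the reverse strand and Rspo3 (ENSMUSG00000019880) at chr10:29452416-29535867 on the reverse strand. Znrf3 (ENSMUSG00000041961) is found on the reverse strand at chr11:5276324-5444847, Rnf43 (ENSMUSG00000034177) on the forward strand at chr11:87662722-87735539 and Lrig1 (ENSMUSG00000030029) on the reverse strand at chr6:94604529-94700158. These spans cover exons and introns, while the 3′ kit counts reads near the ends of transcripts. The 9 genes differ in length and in how well their 3′ ends are captured, so levels were compared between cell types and times, not between genes.

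The 6 libraries held 61031 barcodes, of which 55177 passed the filters and 50502 remained after the removal of likely doublets. Library totals lay between 72634390 and 112370376 unique molecular identifiers (UMIs), the medians per barcode between 5857.5 and 10351, and any pair of libraries shared 7 to 47 barcodes. Cells were clustered without the 9 genes and named by markers. The outer bulge (OB) was made of OB1 (3201 cells), OB2 (956) and OB3 (700), the upper HF of basal (uHF.B, 6167) and suprabasal cells (uHF.SB, 2847), and the interfollicular epidermis of basal (IFE.B, 16723) and suprabasal cells (IFE.SB, 7702). Inner root sheath clusters IRS1 (809) and IRS3 (1142) came mostly from 4 d and 6 d, and IRS1 also carried the markers of IRS2. Basal and suprabasal IFE clusters tied with another marker list among their leading genes. A cluster of 1974 cells led by Tagln, Hsd11b2 and Col14a1 matched no list, and it is called the Tagln cluster. With the clusters cut finer, a cluster of 854 cells led by Tagln was named IRS2, and 1 of 1418 cells with Col14a1 and Hsd11b2 among its leading genes matched no list. The Tagln cluster held 33, 40, 71, 151, 1406 and 273 cells in order of time. The others were a Krt1-led cluster, the inner bulge (IB), sebaceous gland (SG), T cells, Langerhans cells, melanocytes, and a group of 204 cells with fibroblast markers (DP and fibroblast).

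Levels are given as CPM, the UMIs of a gene over all UMIs of that cell type in that library, scaled to 1000000, with an exact 95% Poisson interval that covers counting error only. Shares of cells with a UMI were taken after each cell had been thinned to 2000 UMIs and shallower cells had been left out, and carry exact 95% binomial intervals. A summed level cannot tell fewer cells with a gene from less RNA per cell. The most cells left out in OB1 were 46 of 831 at 4 d, and in T cells 397 of 820 at 2 d. Differences between cell types were tested with edgeR on sums per cell type and library, with the library as a block. The test therefore asks whether a difference recurred over time points, and its p-value rests on the spread between libraries that are different time points.

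Among the 3 receptors Lgr5 was concentrated in the bulge and the Tagln cluster. Of its 7216 UMIs, 46.6% lay in OB1 and 36.7% in the Tagln cluster. In OB1 the level was 342.8 CPM (315 to 373) before any wait and 64.0 after 4 h. The later libraries gave 106.8, 260.9, 192.8 and 240.3 CPM, in order of time. The 4 h library was the lowest and the 0 h library the highest.

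After thinning, 44.4% (38.6 to 50.4) of OB1 cells at 0 h had an Lgr5 UMI, against 10.4% (7.62 to 13.7) at 4 h. In the later libraries the share was 17.5, 42.4, 29.4 and 35.8%. Without thinning these shares were 69.1, 16.3, 37.0, 69.4, 54.3 and 59.8%, at median depths of 4350 to 6617 UMIs per cell. T cells, which are not known to make Lgr5, had it in 0 of 179 thinned cells at 0 h, which allows a share of up to 1.68%. Their highest share was 0.442% (6 d), at median depths of 2020.5 to 2701.5 UMIs. Langerhans cells held 0 Lgr5 UMIs in every library.

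Below OB1, with a median of 217 CPM over libraries, the order ran through the Tagln cluster (144), OB2 (80.6), IRS3 (31.0), OB3 (19.1) and IRS1 (18.7). Each of these overlapped its neighbour in the order. The next type, uHF.B, had a median of 1.90 and a range of 1.13 to 2.18 CPM, below every IRS1 value. In IFE.B the 6 libraries lay between 0.0319 and 1.48 CPM.

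**Figure D1:**
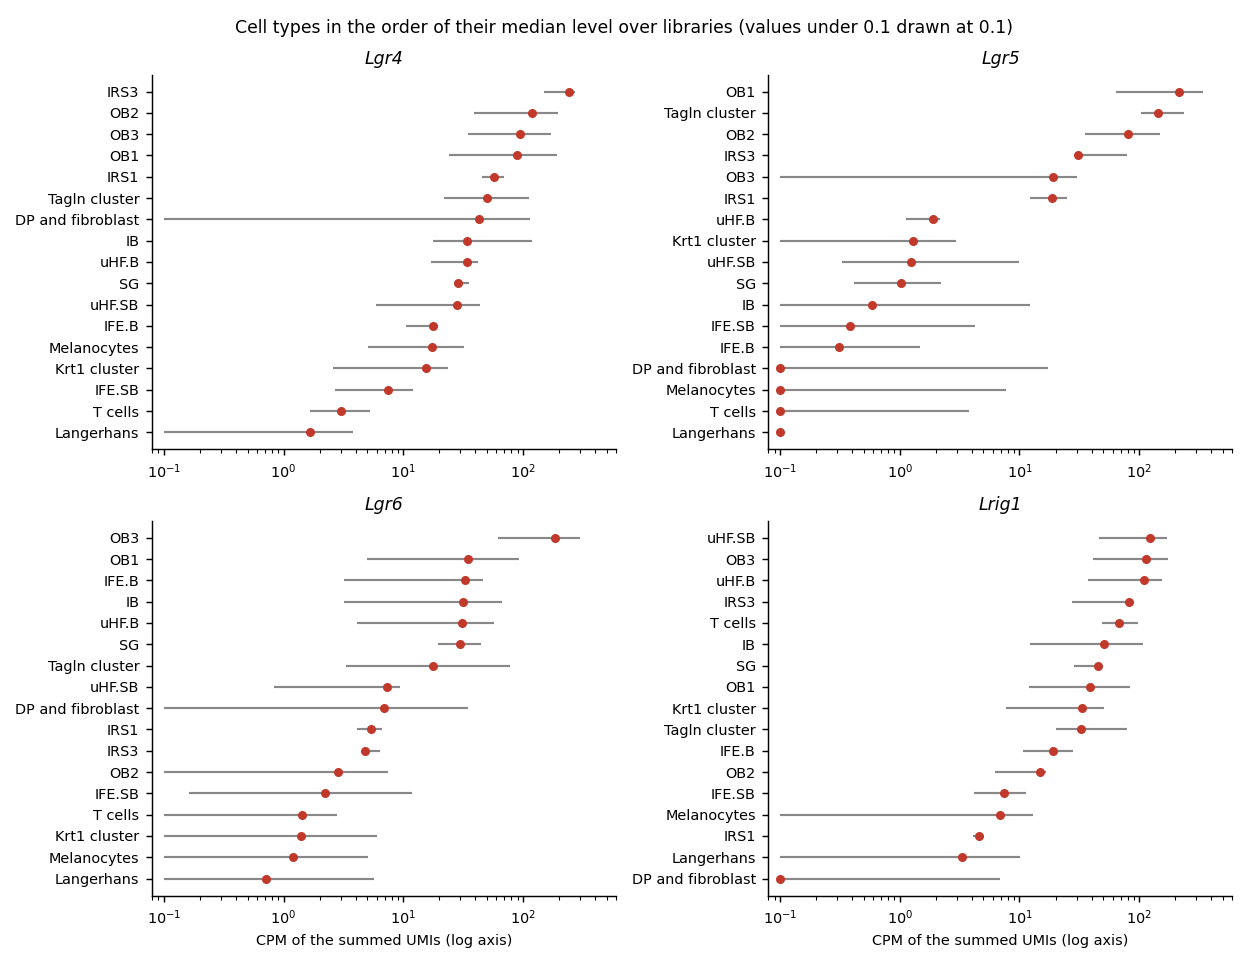
CPM of Lgr4, Lgr5, Lgr6 and Lrig1 (log axis) in each cell type, with the point at the median over libraries and the bar from the lowest to the highest library; values under 0.1 are drawn at 0.1. Lgr5 drops from 18.7 in IRS1 to 1.90 in uHF.B, Lgr6 is highest in OB3 (184), and Lrig1 is spread over uHF.SB (122), OB3 (115) and uHF.B (109).

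Lgr5 was higher in OB than in uHF.B by 6.19 ± 0.22 (log2 fold change ± SE, edgeR adjusted p = 6.05e-08), in 6 of 6 libraries and with no overlap (52.3 to 258 against 1.13 to 2.18 CPM). OB against uHF.B called 40.2% of all genes tested, so a call alone sets a gene little apart, and 6 of the 7 members tested were called. Against IFE.B, with 40.9% of genes called, 5 of 7 members were called and the difference of Lgr5 was 8.32 ± 0.47 (edgeR adjusted p = 3.18e-06).

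Within the bulge Lgr5 formed a gradient. It was higher in OB1 than in OB2 by 1.11 ± 0.16 (edgeR adjusted p = 0.00014, 6 of 6 libraries), a contrast with 19.7% of genes and 3 of 6 members called. In OB2 the level was 119.8, 35.1, 70.8, 149.6, 90.5 and 57.6 CPM from 0 h to 6 d. OB3 lay lower still, at 6.2, 0, 19.2, 19.0, 30.5 and 25.3 CPM, with no overlap with OB1 or OB2. The difference of OB1 from OB3 was 3.37 ± 0.28 (edgeR adjusted p = 3e-05), with 12.7% of genes and 4 of 6 members called.

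The follicle cells that were abundant late in the course also carried Lgr5. In the Tagln cluster it stood at 237, 103, 129, 143, 146 and 201 CPM, and the difference from OB1 was -0.26 ± 0.18 (edgeR adjusted p = 0.328), which missed the threshold. That contrast called 22.2% of genes and 1 of 6 members, Lgr4, at a log2 difference of -0.75 ± 0.17 (edgeR adjusted p = 0.00786). In IRS3, where 3 libraries had enough cells, Lgr5 was at 78.8, 31.0 and 29.4 CPM at 2 d, 4 d and 6 d. It was lower there than in OB1 (log2 difference -2.49 ± 0.22, edgeR adjusted p = 7.94e-05), in a contrast with 23.4% of genes and 3 of 6 members called.

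Lgr6 had another place. Its highest level was in OB3, the bulge cells marked by Tgfb2, Pthlh and Bdnf, with 176.7, 62.0, 127.9, 225.6, 297.0 and 190.4 CPM from 0 h to 6 d. As with Lgr5, the lowest library was that of 4 h. Among thinned OB3 cells 22.0% had an Lgr6 UMI at 0 h and 6.67% (1.85 to 16.2) at 4 h, followed by 29.9, 37.0, 42.3 and 35.8% in the later libraries. The unthinned share ran from 18.3% (4 h) to 68.4% (4 d), and T cells showed at most 0.559%.

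In OB2 the level of Lgr6 was at most 7.49 CPM. OB2 and OB3 did not overlap, and the log2 difference was -5.67 ± 0.25 (edgeR adjusted p = 1.04e-16), in a contrast that called 23.8% of genes and 5 of 6 members. OB1 lay in between, at 16.1, 5.0, 24.5, 93.3, 48.4 and 44.9 CPM. It was above OB2 by 3.53 ± 0.32 (edgeR adjusted p = 2.08e-07) and below OB3 by a log2 difference of -2.33 ± 0.26 (edgeR adjusted p = 0.000469), each in 6 of 6 libraries. Lgr5 and Lgr6 therefore ran in different orders over the 3 bulge clusters, with Lgr5 highest in OB1 and Lgr6 in OB3.

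Outside the bulge Lgr6 was found in basal layers. IFE.B stood at 32.2, 3.22, 33.6, 30.9, 46.4 and 39.4 CPM and held 45.9% of the 9216 Lgr6 UMIs, as the largest cell type. IFE.SB lay between 0.162 and 11.7 CPM, and the difference of IFE.B from it was 3.12 ± 0.36 (edgeR adjusted p = 9.25e-05). That contrast called 62.9% of all genes and 7 of 7 members, 6 of them higher in the basal layer. In uHF.B Lgr6 was at 12.9, 4.07, 26.3, 42.0, 56.8 and 35.4 CPM, above uHF.SB by 2.11 ± 0.26 (edgeR adjusted p = 7.66e-05). The contrast of uHF.B with uHF.SB called 57.5% of genes and 4 of 7 members. For Lgr6 the difference of OB from uHF.B was 0.73 ± 0.18 (edgeR adjusted p = 0.00854), and it was 0.44 with adjusted p = 0.226 once the Tagln cluster was added to OB.

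Lgr4, the broadest of the 3 receptors, was present in every epithelial type. In OB1 its level over the 6 libraries was 50.8, 24.01, 39.2, 128.5, 193.1 and 163.7 CPM. The 3 libraries from 2 d onward were all above the 3 earlier ones. Thinned OB1 cells with an Lgr4 UMI made up 9.03, 3.62, 7.87, 21.8, 30.6 and 25.2% in the same order. OB2 (87.4, 39.2, 51.4, 151.5, 195.6 and 165.4 CPM) and OB3 (58.9, 34.4, 49.0, 130.7, 172.6 and 146.6 CPM) split at the same point.

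IRS3 had enough cells in 3 late libraries only, with 240.8, 273.6 and 148.6 CPM at 2 d, 4 d and 6 d and thinned shares of 38.0, 40.8 and 24.5%. It stood above OB1 and OB2 at 2 d and 4 d and below both at 6 d, and its log2 difference from OB1 was 0.44 (edgeR adjusted p = 0.125). Of the types with 6 libraries OB2 (median 119), OB3 (94.8) and OB1 (89.7) came first, and all neighbours in the whole order overlapped. T cells lay between 1.67 and 5.23 CPM. OB1 and OB3 did not differ by the test in Lgr4 (log2 difference 0.00 ± 0.13, edgeR adjusted p = 0.997), whereas the same pair differed in Lgr5, Lgr6, Rnf43 and Lrig1.

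Lgr4 was higher in OB than in uHF.B by 1.32 ± 0.22 (edgeR adjusted p = 0.00142, 6 of 6 libraries) and than in IFE.B by 2.12 ± 0.29 (edgeR adjusted p = 0.000591). It was also higher in uHF.B than in IFE.B by 0.80 ± 0.10 (edgeR adjusted p = 0.000169), in a contrast with 36.3% of genes and 5 of 7 members called. The levels there were 17.2 to 42.4 CPM in uHF.B and 10.6 to 19.5 CPM in IFE.B.

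The receptors were found together in some cells. Of 3070 thinned OB1 cells, 899 had an Lgr5 UMI, 217 an Lgr6 UMI and 85 both. Lgr5 was detected in 39.2% of the Lgr6-positive cells and in 28.5% of the others. In the whole OB these shares were 21.4 and 22.8%, and in the Tagln cluster 25.3 and 25.4%. In OB1 Lgr5 was detected in 33.3% of the Lgr4-positive cells and in 28.3% of the rest. The latter pair was 25.1 and 22.1% in the whole OB and 22.6 and 26.0% in the Tagln cluster. Among 670 thinned OB3 cells 222 had Lgr6, 21 had Lgr5 and 9 had both. These shares pool the 6 libraries and describe detection at 2000 UMIs per cell, where a cell without a UMI is not shown to lack the transcript.

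**Figure D2:**
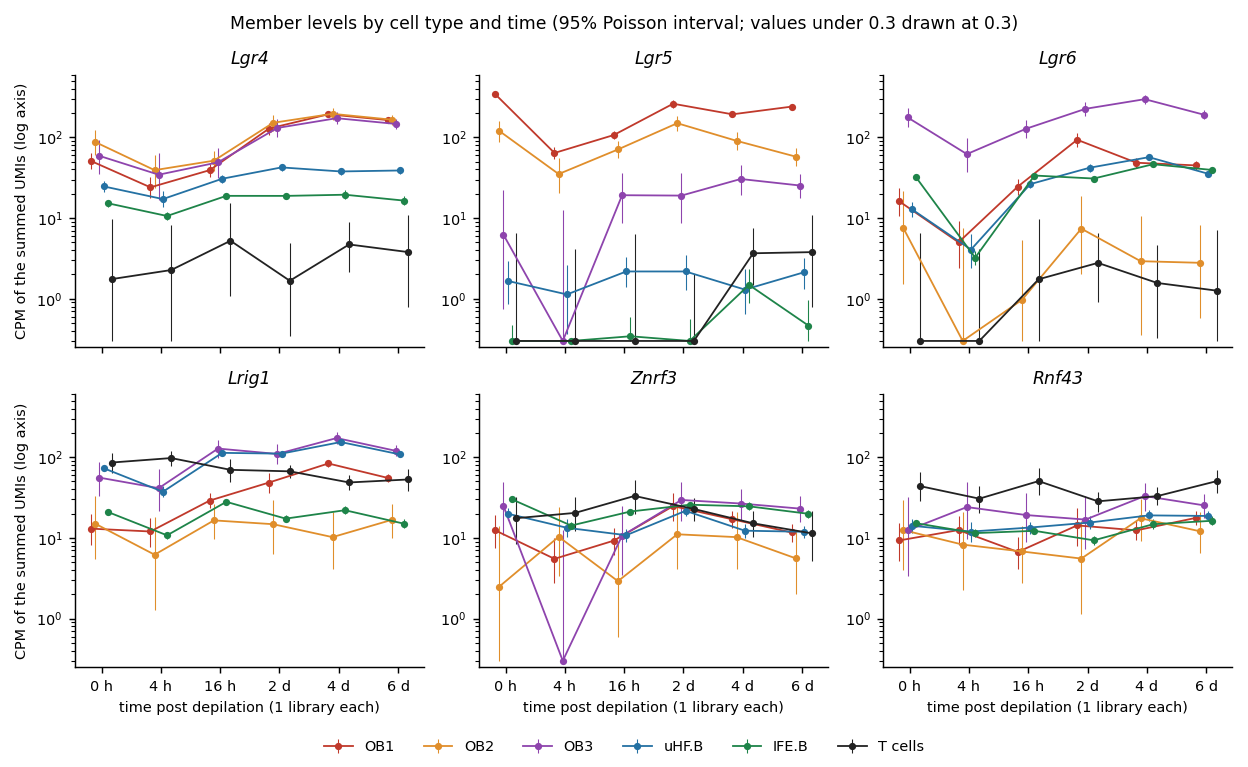
CPM (log axis) of Lgr4, Lgr5, Lgr6, Lrig1, Znrf3 and Rnf43 by time after depilation in OB1, OB2, OB3, uHF.B, IFE.B and T cells, with exact 95% Poisson bars that cover counting error only and values under 0.3 drawn at 0.3. Lgr5 in OB1 dips from 342.8 at 0 h to 64.0 at 4 h, and Lgr4 in OB1 stands at 128.5 or more from 2 d onward against 50.8 or less before.

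The ligands split by tissue. Rspo1 and Rspo2 lay almost wholly in the mesenchymal cells, whose 204 cells held 92.6% of 734 Rspo1 UMIs and 92.1% of 89 Rspo2 UMIs. Those cells numbered 17, 17, 14, 8, 125 and 23 in order of time, so all but the last 2 values rest on few cells. Rspo1 was at 1324 CPM at 4 d (581 UMIs) and 793 at 6 d (91 UMIs), and at 1 to 3 UMIs in each earlier library (28.5 to 64.5 CPM). Rspo2 was at 141 and 174 CPM at 4 d and 6 d (62 and 20 UMIs), with 0 UMIs in each of the 4 earlier libraries.

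Rspo3 in the same cells was at 66.2, 0, 64.5, 256, 1308 and 1002 CPM, which were 3, 0, 3, 9, 574 and 115 UMIs. At 4 d 83.6% (75.4 to 90.0) of thinned mesenchymal cells had an Rspo1 UMI, 26.4% an Rspo2 UMI and 83.6% an Rspo3 UMI. At 6 d the shares were 59.1, 27.3 and 68.2% of 22 thinned cells. Without thinning they were 88.0, 33.6 and 85.6% at 4 d and 91.3, 56.5 and 91.3% at 6 d, at median depths of 3507 and 4403 UMIs. T cells had no Rspo1 UMI in any library.

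Compared with OB of the same library, the mesenchymal cells held 7718 times as much Rspo1 at 4 d (counting interval 1380 to 305353, with 1 UMI in OB) and 2000 times at 6 d (663 to 9877). Rspo2 was at least 275-fold higher at 4 d and at least 439-fold higher at 6 d, against a floor of 3 counts per library in OB. Rspo3 was at least 2542-fold higher at 4 d. In the test against OB, fitted on 5 libraries without the 2 d one and its 8 mesenchymal cells, 8 of 9 members and 22.5% of all genes were called. The 3 R-spondins were higher, and Lgr4 (log2 difference -1.42), Lgr5 (-4.86), Lgr6 (-2.59), Lrig1 (-4.42) and Rnf43 were lower. In any library OB held at most 3 Rspo1, 0 Rspo2 and at most 2 Rspo3 UMIs, and the mesenchymal cells held 0 Rnf43 UMIs. For the R-spondins and Rnf43 the direction was thus fixed by these counts, and the calls add no support to them. Without the 4 d library 4 members were called, and with DESeq2 5, counts that are not set beside a share of all genes.

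The defining markers of the DP and fibroblast label varied between libraries. Col1a1, a collagen of fibroblasts, was at 44.1, 258.9, 0, 0, 2461 and 43.6 CPM in order of time, and at 4 d it was found in 18.4% of the cells. Col3a1 was at 220.5, 86.3, 172.0, 256.1, 2455 and 880 CPM, and Pdgfra at 78.4 to 107.9 except for 0 at 2 d. The fibroblast markers Dcn and Lum had 0 UMIs at 0 h, 16 h, 2 d and 6 d, and at 4 h each was in 1 cell. At 4 d they were found in 6.4 and 4.8% of the cells, and Col1a2 in 87.2%. Corin, a known DP gene, was at 0, 21.6, 0, 28.5, 588 and 401 CPM, and Alpl at 0, 0, 21.5, 0, 440 and 575. Crabp1 was present throughout, at 794, 561, 258, 28.5, 536 and 723 CPM. Keratinocyte RNA was also there, with Krt14 at 370 to 4618 CPM. Whether more DP cells were recovered or each held more R-spondin RNA from 4 d on cannot be told apart.

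Among the 204 cells, 164 had a UMI of at least 1 of 5 DP markers (Corin, Alx4, Sox2, Alpl, Crabp1), and 141 of these (86.0%) also had an R-spondin UMI. Of the 40 cells without a DP marker 10 did. In the 4 earlier libraries the counts were 2 of 13, 0 of 9, 4 of 6 and 2 of 2 cells with a marker, so the pooled share rests on 4 d and 6 d. At 4 d the counts were 110 of 111 cells with a marker (99.1%) and 5 of 14 without (35.7%). At 6 d all 23 cells had both. These counts were not thinned, so depth was not matched between cells with and without a marker. At 0 h Crabp1 was in 11 of 17 cells, where 13 had any of the 5 markers. The study describes separate dissociation routes for resting and growing skin in its methods for flow cytometry. Neither it nor the labels say which route a library had. The part of dissociation in the number of mesenchymal cells was not tested.

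**Figure D3:**
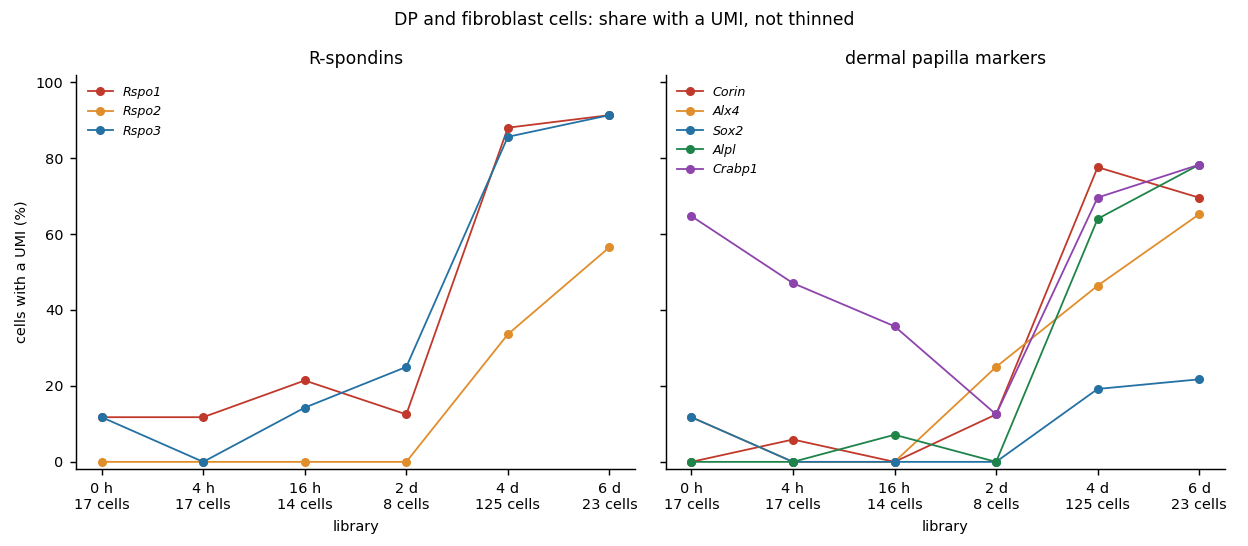
Percent of DP and fibroblast cells with a UMI (not thinned) at each time point, for Rspo1, Rspo2 and Rspo3 (left) and for the DP genes Corin, Alx4, Sox2, Alpl and Crabp1 (right), in 17, 17, 14, 8, 125 and 23 cells. Rspo1 is found in 88.0% of the cells at 4 d and 91.3% at 6 d. Before 4 d Corin is found in at most 12.5% of the cells and Alpl in at most 7.14%. Alx4 and Sox2 are each in 11.8% at 0 h, and Crabp1 is in 64.7% at 0 h and 69.6% at 4 d.

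Rspo3 had a source in the epidermis as well. Of its 5564 UMIs, 55.6% lay in IFE.B, 27.2% in IFE.SB and 12.7% in the mesenchymal cells. In IFE.B the level was 38.6 CPM at 0 h and 0.798 at 4 h, and then 28.0, 16.4, 18.1 and 20.1 CPM. Thinned shares were 7.66% (6.73 to 8.68), 0.209% (0.084 to 0.430), 5.55, 3.52, 3.70 and 3.99%. IFE.SB followed the same course at 23.0, 0.379, 16.7, 10.3, 15.0 and 8.37 CPM.

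In the follicle Rspo3 was scarce. uHF.B was at 8.04, 0.226, 3.69, 3.71, 1.65 and 1.84 CPM, OB1 held 2 UMIs over the 6 libraries and OB2 none. T cells held 3 UMIs in all. The log2 difference of uHF.B from IFE.B was -2.87 ± 0.21 (edgeR adjusted p = 7.28e-06), and that of IFE.B from IFE.SB was 0.54 ± 0.11 (edgeR adjusted p = 0.00195). OB was lower in Rspo3 than uHF.B by a log2 difference of -3.72 ± 0.57 (edgeR adjusted p = 0.000587). With at most 2 UMIs in OB in any library, Rspo3 entered that test through uHF.B and could only come out lower in OB. The call thus adds nothing to the counts.

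The 2 ligases were low and widespread. In IFE.B Znrf3 was at 30.1, 14.2, 21.2, 25.8, 24.6 and 19.9 CPM. Its medians over libraries ran from 26.2 in IRS1 through 23.9 in OB3, 22.9 in IFE.B and 19.0 in T cells down to 0.892 in Langerhans cells. Znrf3 was lower in OB than in IFE.B (log2 difference -1.09 ± 0.16, edgeR adjusted p = 0.000692) and lower in uHF.B than in IFE.B (-0.74 ± 0.13, edgeR adjusted p = 0.00183). For OB against uHF.B the difference was -0.34 ± 0.19 (edgeR adjusted p = 0.18). Basal cells stood above suprabasal ones in the uHF (0.51 ± 0.14, edgeR adjusted p = 0.00701) and in the IFE (0.83 ± 0.12, edgeR adjusted p = 0.000228).

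Rnf43 had its highest median in T cells (38.4 CPM, libraries from 28.4 to 50.5), followed by IRS1 (33.4) and OB3 (21.6). T cells are therefore no background for Rnf43, nor for Znrf3 or Lrig1. The mesenchymal cells held 0 Rnf43 UMIs, and melanocytes 1. IRS1 was at 32.6 and 34.2 CPM, and IFE.SB at 6.02 to 8.14. OB3 was above OB1 (log2 difference of OB1 from OB3 -0.85 ± 0.24, edgeR adjusted p = 0.0148) and above OB2 (-0.98 ± 0.29, edgeR adjusted p = 0.014), and IFE.B was above IFE.SB by 0.69 ± 0.09 (edgeR adjusted p = 0.000171). The difference of OB from uHF.B was -0.42 ± 0.14 (edgeR adjusted p = 0.0391) and missed the threshold with DESeq2 (adjusted p = 0.0506).

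**Figure D4:**
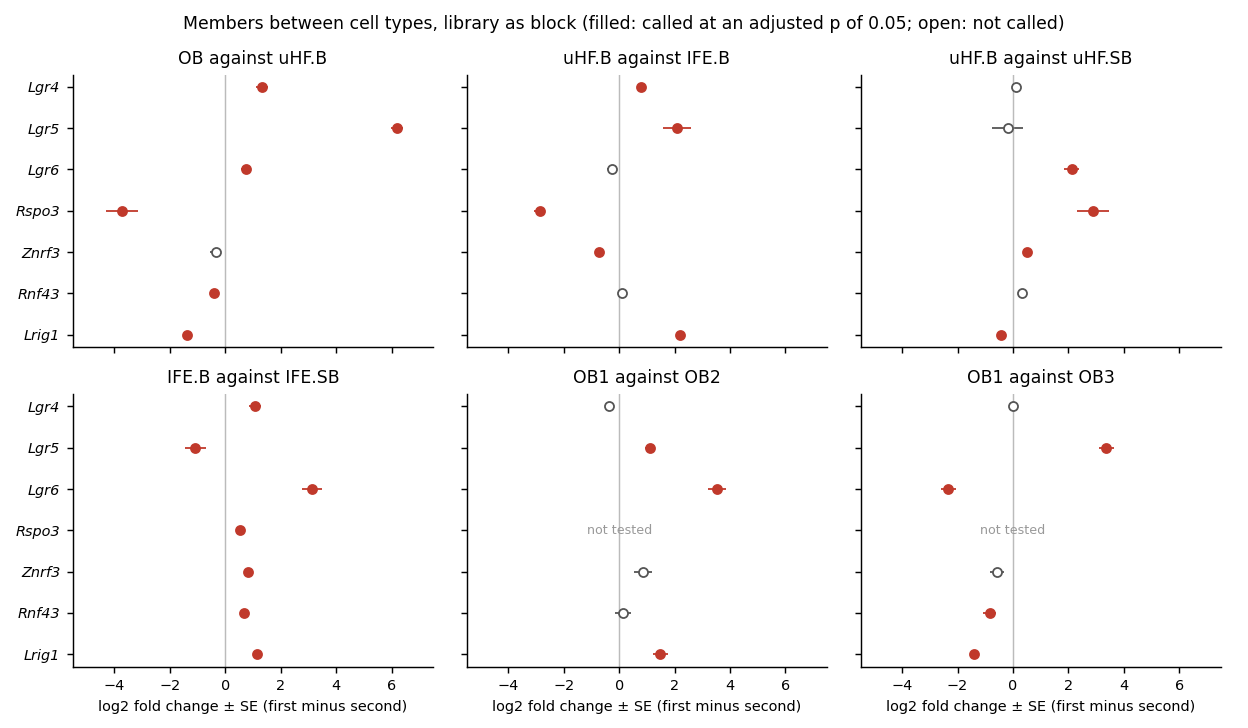
Fitted log2 fold change ± SE (edgeR, library as block) of each member in 6 cell type contrasts, filled where the adjusted p is under 0.05 and open where not; Rspo3 was not tested in the last 2. Lgr5 stands at 6.19 in OB against uHF.B, Lgr6 at -2.33 in OB1 against OB3, and Lrig1 at -1.38 in OB against uHF.B.

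Lrig1 had its highest medians in uHF.SB, OB3 and uHF.B. In uHF.B it was at 73.1, 37.3, 113.2, 110.7, 154.1 and 108.1 CPM from 0 h to 6 d, and in uHF.SB at 99.1, 46.2, 132.8, 171.9, 171.7 and 112.0. OB3 lay in the same range, at 55.8, 41.3, 127.9, 109.6, 172.6 and 119.8 CPM. The lowest library was that of 4 h in all 3 types. Thinned uHF.B cells with an Lrig1 UMI made up 13.8, 7.58, 21.1, 20.4, 26.8 and 20.3%.

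Against IFE.B (10.8 to 28.0 CPM) uHF.B did not overlap and was higher by 2.21 ± 0.16 (edgeR adjusted p = 7.47e-06). OB as a whole was below uHF.B (log2 difference -1.38 ± 0.14, edgeR adjusted p = 4.31e-05, lower in 6 of 6 libraries). Inside the bulge OB1 was below OB3 (-1.40 ± 0.16, edgeR adjusted p = 1.17e-07) and above OB2 (1.48 ± 0.28, edgeR adjusted p = 0.0011). OB2 was at 6.19 to 16.7 CPM and OB3 at 41.3 or more, without overlap. T cells carried Lrig1 at 85.9, 97.5, 69.7, 66.8, 48.6 and 53.0 CPM, and IRS1 held 4.07 and 5.05 CPM. In IRS3 it was at 27.7, 82.2 and 90.8 CPM at 2 d, 4 d and 6 d, in the Tagln cluster at 20.02 to 79.3, and in IB at 12.2, 24.1, 106.7, 125.0, 146.4 and 77.5, where 10 to 115 cells stood behind each value.

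Lrig1 and Lgr6 were also detected together in the upper follicle. Of 6088 thinned uHF.B cells 407 had Lgr6, 1187 had Lrig1 and 131 had both, so that Lrig1 was detected in 32.2% of the Lgr6-positive cells and 18.6% of the others. In IFE.B, with 999 Lgr6-positive cells of 16589, the shares were 3.80 and 3.86%. In OB3 they were 21.2 and 18.1%.

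SG cells, of which 5 libraries had enough, were set against uHF.B, with 49.3% of genes and 4 of 7 members called, all 4 lower in SG. Lrig1 differed by -1.20 ± 0.16 (edgeR adjusted p = 0.000247), Rspo3 by -2.67 ± 0.51 (edgeR adjusted p = 0.00186), Znrf3 by -0.62 ± 0.17 (edgeR adjusted p = 0.0134) and Rnf43 by -0.41 ± 0.12 (edgeR adjusted p = 0.0177). SG held at most 4 Rspo3 UMIs in any library, so Rspo3 could only come out lower there. Lgr6 was at 19.3 to 44.7 CPM in SG, and its difference of 0.09 was not called (edgeR adjusted p = 0.846).

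The 4 h library stood lowest for most members in most epithelial types. Since 0 h and 4 h were 1 library each, the ratio of their levels has no replicate check, and its interval covers counting error. In OB1 4 of 6 members with at least 20 UMIs were lower by 2-fold or more, beside 19.4% of all genes with as many UMIs, and 0 were higher by as much, beside 18.1%. Lgr5 was 5.35-fold lower (4.41 to 6.54; 553 and 128 UMIs), a ratio that 348 of 8896 genes reached or passed. Lgr6 was 3.22-fold lower (1.504 to 7.49), Znrf3 2.25-fold (1.03 to 5.21) and Lgr4 2.12-fold (1.47 to 3.09), while Lrig1 was 1.08-fold lower.

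OB1 was made of different clusters at these times. It joined a cluster led by Krt24, with 270 of 288 cells at 0 h and 154 of 459 at 4 h, and another led by Scrg1, with 18 and 305 cells. Within the Krt24 cluster Lgr5 was at 342.0 CPM at 0 h and 131.0 at 4 h, 2.61-fold lower (2.12 to 3.25). Within the Scrg1 cluster it was at 354.0 (39 UMIs) and 17.8, 19.9-fold lower (11.4 to 35.7). With the clusters cut finer, 227 of these 305 cells formed a cluster led by Cpa4 that held 0 cells at 0 h, and the Scrg1-led cluster kept 18 cells at 0 h and 37 at 4 h. The ratio within the Scrg1 cluster thus compares cells that mostly fell in different finer clusters. For Lgr4 the Krt24 cluster gave 53.9 and 36.7 CPM, 1.47-fold lower with an interval of 0.954 to 2.31 that includes no difference. The same held for Lgr6 (14.6 and 11.0 CPM, 1.33-fold, 0.588 to 3.28).

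In OB2 both members with enough UMIs were lower, Lgr5 by 3.42-fold (1.93 to 6.34) and Lgr4 by 2.23-fold (1.24 to 4.12), beside 13.1% of genes. In OB3 it was 1 of 3, Lgr6 by 2.85-fold (1.65 to 5.15), beside 15.6%. In the Tagln cluster Lgr5, the only member with enough UMIs, was 2.29-fold lower (1.45 to 3.69), beside 8.88%. In T cells 0 of 3 members were lower by 2-fold, beside 5.92% of genes.

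**Figure D5:**
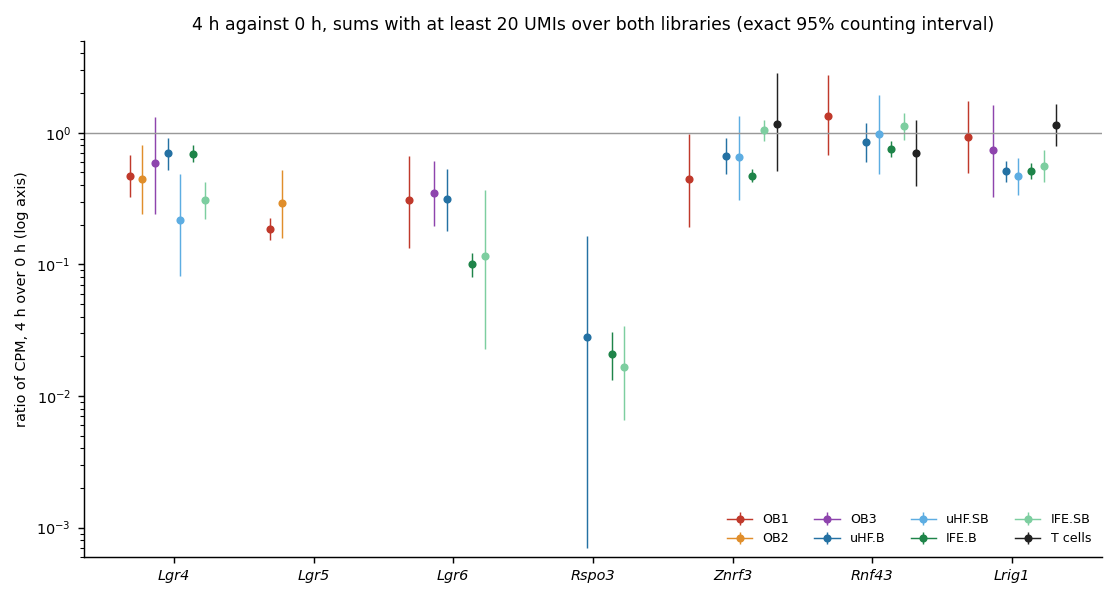
Ratio of the CPM at 4 h to that at 0 h (log axis) with its exact 95% counting interval, for members with at least 20 UMIs over both libraries in 8 cell types; the line at 1 marks equal levels. Rspo3 in IFE.B is 48.4-fold lower, Lgr6 in IFE.B 10.0-fold and Lgr5 in OB1 5.35-fold, and no member is 2-fold higher.

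The epidermis showed the largest ratio. In IFE.B 3 of 6 members were lower at 4 h by 2-fold or more, beside 26.9% of genes. Rspo3 had 1053 UMIs at 0 h and 25 at 4 h and was 48.4-fold lower (32.6 to 75.1), which 52 of 12575 genes matched or passed. Lgr6 was 10.0-fold lower (8.13 to 12.4; 879 and 101 UMIs), which 414 of those genes did. Znrf3 was 2.12-fold lower (1.89 to 2.38), Lrig1 1.95-fold, Lgr4 1.44-fold and Rnf43 1.33-fold.

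Suprabasal cells were alike in this. In IFE.SB Rspo3 went from 570 to 7 UMIs and was 60.7-fold lower (29.3 to 152; 26 of 11949 genes at that ratio or lower), Lgr6 was 8.70-fold lower (2.74 to 44.2) and Lgr4 3.23-fold (2.37 to 4.49). These were 3 of 6 members, beside 17.8% of genes. In uHF.SB 2 of 4 were lower, beside 15.5%, Lgr4 by 4.64-fold (2.06 to 12.3) and Lrig1 by 2.15-fold (1.56 to 2.98). In uHF.B it was 2 of 6, beside 21.9%. Rspo3 had 58 UMIs at 0 h and 1 at 4 h there, a ratio of 35.6 (6.14 to 1429), and Lgr6 was 3.17-fold lower (1.90 to 5.58). Lgr6 was lower in each of the 2 clusters that make up uHF.B, by 13.5-fold (2.20 to 555) in that led by Ntrk2 and by 3.26-fold (1.90 to 5.92) in the other.

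At 16 h some of these members stood above their 4 h level. This step shares the 4 h library with the one before, so it adds no independent view of 4 h. In IFE.B Rspo3 was 35.1-fold above 4 h (23.6 to 54.5), Lgr6 10.4-fold (8.51 to 12.9) and Lrig1 2.60-fold. These were 3 of 6 members, beside 22.7% of genes that were higher by 2-fold. In OB1 it was 2 of 6, beside 17.5%, with Lgr6 4.91-fold and Lrig1 2.42-fold higher, while Rnf43 had a ratio of 0.535 (0.285 to 0.996). Lgr5 in OB1 was 1.67-fold higher (1.36 to 2.06) and, at 106.8 CPM, still under its 0 h level. Rspo3 in IFE.B stayed lower than at 0 h, with a ratio of 0.469 (0.405 to 0.542) at 4 d and 0.520 at 6 d.

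Late in the course OB1 stood above its 0 h level in 3 members. At 4 d Lrig1 was 6.42-fold higher (4.14 to 10.5), Lgr4 3.80-fold (3.02 to 4.83) and Lgr6 3.01-fold (1.99 to 4.71), 3 of 6 beside 22.1% of genes. At 6 d the ratios were 4.26, 3.22 and 2.79, beside 14.2%. The cells of OB1 had shifted between its 2 clusters, with 270 of 288 in the Krt24 cluster at 0 h and 661 of 831 in the Scrg1 cluster at 4 d. Within the Krt24 cluster Lgr4 was at 53.9 CPM at 0 h and 128.6 at 4 d, and Lgr6 at 14.6 and 62.0. Lrig1 was at 13.97 and 18.6 CPM there, and the ratio of 0 h to 4 d, 0.752 (0.353 to 1.68), includes no difference. Lgr5 had ratios of 0.563 and 0.701 at those times. In OB3 4 of 6 members were higher at 4 d by 2-fold or more, beside 19.4%, among them Lrig1 (3.09-fold, 1.89 to 5.38) and Lgr4 (2.93-fold, 1.81 to 5.02). In uHF.B Lgr6 was 4.40-fold (3.52 to 5.56) and Lrig1 2.11-fold higher at 4 d, while Rspo3 had a ratio of 0.206 (0.106 to 0.373).

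A smooth course over hours was tested across the 6 libraries with edgeR (a natural spline with 3 degrees of freedom, which leaves 2 residual degrees). No member was called in OB1, OB2, OB3, the whole OB, uHF.B, uHF.SB, IFE.B, IFE.SB or T cells, and 0% of all genes were called in OB1. In OB1 3 of 6 members and 626 of 10557 genes had an unadjusted p under 0.05, and the adjusted p was 0.546 for Lgr4, 0.811 for Lgr6, 0.431 for Lrig1 and 1.0 for Lgr5. In OB3 and IFE.SB 1 member each had an unadjusted p under 0.05, in the whole OB 2, and in OB2, uHF.B, uHF.SB, IFE.B and T cells 0. Among all genes 0.0472% were called in OB3, 0.0514% in T cells and 0% in the other types just named. On log2(hours + 1), which spreads the early times, 4 of 6 members and 17.6% of genes were called in OB1. They were Lgr4 (linear trend 2.26 in log2 over the course, edgeR adjusted p = 0.0006), Lgr6 (2.45, 0.00115), Lrig1 (2.54, 0.00229) and Lgr5 (0.01, 0.011). The trend is the linear part of the spline alone, not the net change, while the p-value covers all its terms. Lgr5 was thus called with almost no linear trend. On the rank of the time point 3 were called, beside 7.02%. On log2(hours + 1) Lgr4 was called in OB2 (beside 3.49% of genes), Lgr4 and Lgr6 in OB3 (beside 9.54%) and 4 members in the whole OB (beside 14.3%), where 1 was called on the rank (beside 4.58%). The calls in OB1 thus depended on the scale given to time. Without the 0 h library 4 members were called on hours as well. That fit had 1 residual degree of freedom, and its count is not set beside a share of all genes. It is therefore not read as a result about the members.

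In the Tagln cluster Lgr6 was called on hours (edgeR adjusted p = 0.0152, with 3.65% of genes called). There 3 members were called on log2(hours + 1), beside 9.39%, and 1 on the rank, beside 5.78%. Its levels were 8.78, 3.34, 60.0, 78.6, 20.6 and 15.1 CPM, highest at 16 h and 2 d. The 0 h and 4 h values rest on 33 and 40 cells. The linear trend of Lgr6, 0.34 in log2 over the course, became -1.02 or -1.07 without the 0 h or the 4 h library.

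Cycling OB cells, those with UMIs of at least 2 of 10 cell cycle genes, were compared with the other OB cells. The levels of Lgr5 were 60.8 to 218 CPM in cycling and 53.6 to 263 CPM in other cells, and the log2 difference was -0.28 ± 0.14 (edgeR adjusted p = 0.243). For Lrig1 it was 0.23 ± 0.16 (adjusted p = 0.464) and for Lgr4 0.06 ± 0.15 (adjusted p = 0.882). edgeR called 0 of 6 members, beside 7.91% of genes, 1 member had an unadjusted p under 0.05, and DESeq2 called 0.

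The other genes of the pathway were taken as lists and described by counts. The share of all genes called was 40.2% in OB against uHF.B, 40.9% in OB against IFE.B and 19.7% in OB1 against OB2. Of 12 Wnt receptors (the 10 Frizzled genes with Lrp5 and Lrp6), 8 were called in OB against uHF.B, 7 of them higher in OB, with a list median of 1.08 on the log2 scale beside -0.01 over all genes. The largest were Fzd2 (3.64), Fzd1 (2.07) and Fzd3 (2.06), and Fzd10 was lower (-4.14). Against IFE.B 10 of 12 were called, 8 higher in OB, led by Fzd2 (4.91), Fzd7 (4.62) and Fzd3 (3.65), with Fzd10 (-4.97) and Fzd6 (-0.53) lower. Within the bulge 4 of 9 receptors were called between OB1 and OB2, with Fzd2 higher in OB1 (1.57) and Fzd1 (-1.51), Fzd5 and Fzd7 higher in OB2.

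Of 8 Wnt target genes 6 were tested in OB against uHF.B and 4 called, beside 40.2% of all genes. Lef1 (3.03) and Nkd1 (2.44) were higher in OB, and Nkd2 (-2.94) and Axin2 (-1.31), a feedback inhibitor of the pathway, were lower. Axin2 had the same order as Lgr6 and Lrig1 within the bulge, OB3 above OB1 above OB2. Axin2 was higher in OB1 than in OB2 (2.02), lower in OB1 than in OB3 (-1.31) and lower in OB2 than in OB3 (-3.26). These contrasts called 2 of 4, 1 of 3 and 2 of 3 targets, beside 19.7, 12.7 and 23.8% of all genes. A link between the shared orders was not tested. In the Tagln cluster 4 of 6 targets were higher than in OB1, beside 22.2% of genes called, led by Notum (4.33), Lef1 (2.76) and Nkd1 (1.26). In the mesenchymal cells 6 of 7 targets were called against OB, beside 22.5% of genes, with Nkd2 (9.39), Notum (9.03) and Lef1 (5.78) the furthest.

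ERBB receptors, whose amount LRIG1 is known to limit, were 3 tested genes. Their RNA levels do not show the amount of receptor protein, and a link to Lrig1 was not tested. In OB against uHF.B, with 40.2% of all genes called, Egfr was higher (0.66) and Erbb3 lower (-1.06). In uHF.B against uHF.SB, with 57.5% called, Erbb2 (-1.61) and Erbb3 (-1.30) were lower in the basal cells. The Lrig1 difference there was -0.44 ± 0.09 (edgeR adjusted p = 0.00107), and -0.08 with adjusted p = 0.461 when the clusters were cut finer. In OB1 against OB2, with 19.7% called, Erbb2 (-1.26) and Erbb3 (-0.89) were lower in OB1, beside a Lrig1 difference of 1.48. In uHF.B against IFE.B and in OB1 against OB3 Lrig1 differed by 2.21 and -1.40. There 0 of 3 receptors were called by edgeR, beside 36.3 and 12.7% of all genes, and 0 and 1 had an unadjusted p under 0.05. Of the Lrig1 and R-spondin paralogs Lrig2, Lrig3 and Rspo4, 2 were tested in OB against uHF.B and Lrig3 was higher (0.67).

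Each member was last set beside the genes whose levels were most alike over the 88 sums of 17 cell types and 6 libraries, by Pearson's r of log2(CPM + 5). The sums of a library share its depth and those of a cell type its clustering, so r is given as a description. Lgr5 was most like Tbx1 (0.913), Lhx2 (0.869) and Dmd (0.864), Lgr4 like Bcl11a (0.876), Tcf7l2 (0.846) and Fzd3 (0.832), and Lgr6 like Art4 (0.809), Trp73 (0.805) and Smoc2 (0.763). Lhx2 was among the OB markers that named the clusters. The nearest genes to Rspo1 were Gldn, Twist1 (0.994) and the fibroblast marker Col3a1 (0.983), those to Rspo2 were Twist1 (0.994), Gldn (0.991) and Ebf1 (0.978), and those to Rspo3 were Col3a1 (0.841), Lama2 (0.839) and Twist1 (0.837). For the R-spondins the values rest largely on the mesenchymal sums. Rnf43 was nearest to Def6 (0.772), Plekha7 (0.713) and Rps6ka1 (0.701), Lrig1 to Adgrl2 (0.673), Sgk1 and Itgb8 (each 0.639), and Znrf3 to Ccnd2 (0.590).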

How the data were processed

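Cells of mouse dorsal skin were profiled with the 10x Genomics 3′ kit in 6 libraries, 1 per time point. The authors mapped the reads with Cell Ranger 6.1.2 to mm10 and deposited filtered matrices of raw UMI counts per gene and cell, as the submitters' processing notes and the files give them. Barcodes with 500 to 7000 genes and at most 10% mitochondrial UMIs were kept. Scrublet (scanpy 1.11.5) called under 0.5% of barcodes in most libraries, so the highest scores were removed at 0.8% per 1000 barcodes. Cells were integrated with Seurat 5.3.0 (reciprocal PCA, 2000 variable genes, 30 components) and clustered at resolution 0.2 for all skin and 0.4 for follicle cells. The 9 genes, the pathway lists and genes that moved with the cell cycle were kept out of clustering. Clusters were named from marker lists, and the other genes of the same cells define them.

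UMI counts were summed per cell type and library (at least 20 cells, or 10 for mesenchymal and cycling cells, in at least 3 libraries) and tested on all genes with edgeR 4.0.16 (TMM, quasi-likelihood, two-sided, Benjamini-Hochberg over all genes, called at 0.05). DESeq2 1.42.0, other size factors, no filter on low counts, finer clusters, a stricter doublet filter, other time scales and leaving out each library were the alternatives. Counts were simulated at a fixed dispersion and with a profile shared by all sums. Known changes were put into genes with a mean count of at least 20. There the OB against uHF.B test recovered 98% of genes changed by 1 and 100% of those changed by 2 on the log2 scale. It made 13 false calls among 12022 genes. The OB1 time course recovered 29% and 89%, with 2 false calls among 10501 genes. The spread between the real libraries was not simulated, so these shares are not the power in these data. Ratios between 2 libraries used genes with at least 20 UMIs over both and an exact binomial interval. IRS2 was not a cluster of its own at the main resolution and IRS1 had enough cells in 2 libraries only, so their contrasts with OB1 were not run. SG had too few cells at 0 h, so it was not tested over time. The genes, lists and tests were chosen with earlier results of these data known. Named were the 9 genes and, of a list, up to 3 called genes per direction with the largest fold change. Free RNA was not corrected for, and intervals and floors cover counting error only.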

Additional observations from a re-analysis of the deposited data

How the results depend on the processing

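Of 55 calls of a member between cell types, 39 stayed past the threshold in every alternative run, and none changed direction. Over their 574 alternatives 534 stayed on their side of the threshold and 40 lost it. OB against uHF.B lost Lgr6 when the Tagln cluster was added to OB, and Rnf43 with DESeq2. The count of members called between OB2 and OB3 was 5 and was 3 with DESeq2 and 3 to 5 when a library was left out (3 without 4 d or 6 d). DP and fibroblast against OB gave 8, 5 with DESeq2 and as few as 4 without the 4 d library. SG against uHF.B gave 4 and 2 without the 2 d library. The Tagln cluster against OB1, added after the data were seen, gave 1, with 0 without 6 d and 2 without 16 h. Member counts from DESeq2, from leaving out a library and without the low-count filter, here and below, stand without the share of all genes called. They show only how the calls moved.

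Counts of members called over time on hours were 0 in OB1, OB2, OB3, OB and IFE.SB and 1 in the Tagln cluster. On log2(hours + 1) they were 4, 1, 2 and 4 in OB1, OB2, OB3 and OB and 3 in the Tagln cluster, and on the rank of the time point 3 in OB1 and 1 in OB. Leaving out a library gave 0 to 4 in OB1 and 0 to 3 in OB (both highest without 0 h), 0 to 2 in IFE.SB (2 without 4 h) and 0 to 4 in the Tagln cluster (4 without 0 h, 0 without 2 d or 6 d), which gave 2 with no filter on low counts. There the linear trend of Lgr6 was 0.34 and ranged from -1.07 (without 4 h) and -1.02 (without 0 h) to 1.44 (without 6 d). With 1 library left out these fits have 1 residual degree of freedom. The cause of these differences was not tested.

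The mean of each cell's own CPM gave 297 for Lgr4 in IRS3 at 4 d (273.6 from the sum) and 189 for Lrig1 in uHF.SB at 2 d (171.9). Shares moved with the depth compared. Without thinning and with thinning to 1000 UMIs they were 72.6 and 25.7% for Lgr4 in IRS3 at 4 d (40.8% at 2000), 69.1 and 26.0% for Lgr5 in OB1 at 0 h (44.4%), 68.4 and 25.3% for Lgr6 in OB3 at 4 d (42.3%), and 67.3 and 18.0% for Lrig1 in uHF.SB at 2 d (28.9%). Without thinning Rspo2 at 6 d was found in 56.5% of mesenchymal cells (27.3%) and Znrf3 at 6 d in 20.9% of IRS1 cells (2.24%). At 1000 UMIs Rspo1 and Rspo3 at 4 d were found in 68.5 and 63.7% of mesenchymal cells (83.6% each).

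No paired analysis was possible because the time points, 1 library each, share no replicate number. The cell type contrasts were fitted with the library as a block. The limits are few cells at early times in the mesenchymal, Tagln and OB3 groups, 1 library per time point, and clusters cut from the same cells.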

Other observations

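A few genes of the pathway lists were called over time. On hours, 336 of 9218 genes were called in the Tagln cluster and 242 of 4320 in melanocytes. The values given are linear trends in log2 over the course, not net changes. In the Tagln cluster Lef1, a Wnt target and transcription factor that marks hair-forming cells, had a trend of -4.06 (edgeR adjusted p = 0.00866). Tcf7 had -2.12 there (adjusted p = 0.0452). In melanocytes Nkd1 had a trend of 2.42 (adjusted p = 0.0485). On log2(hours + 1) Fzd3 in OB1 had a trend of -0.89 (adjusted p = 0.0242) and Ccnd1 in OB3 one of -0.63 (adjusted p = 0.00176), neither called on hours. On that scale Fzd7 in uHF.SB had a trend of 1.48 (adjusted p = 0.0448) and Axin2 in the Tagln cluster one of -2.36 (adjusted p = 0.0454).

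The lists were also compared between the layers of the IFE and in the gland. IFE.B against IFE.SB called 6 of 11 Wnt receptors and 4 of 6 target genes, beside 62.9% of all genes. Ccnd1 (1.96), Tcf7 (1.55) and Axin2 (0.57) were higher in the basal layer and Nkd2 lower (-5.30). In uHF.B against IFE.B, with 36.3% of genes called, Fzd7 (3.36), Fzd3 (1.54) and Fzd1 (1.37) were higher in the follicle. There 1 of 5 targets was called, Nkd2 (3.42). SG against uHF.B called 4 of 11 receptors, beside 49.3% of genes. Fzd4 was the only called receptor higher in SG (2.97). IRS3 differed from OB1 in all 3 ERBB receptors tested, beside 23.4% of genes, with Erbb3 (1.55) and Erbb2 (1.14) higher in IRS3 and Egfr lower (-0.63).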
